A study of Gallus gallus with 25 samples.

Results

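Large unstructured domains (LUDs) are the long contact domains of chicken lampbrush chromosomes. They were taken as the domains of the manually refined list of LBC type 1 that are longer than the N50 of that list, 1344 kb. Domains at or above the N50 in length together make up at least 50% of the summed length of the list. LUDs were thus chosen by a single measured value, the length of the domain, and by this rule 230 of 873 domains were LUDs, and the other 643 were small squared domains (SSDs). The LUDs made up 26.3% of the domains and 484.9 Mb, or 49.0%, of the domain length, a share that the N50 fixes near its middle value. Since the length of each domain in the manual list chose the LUDs, lengths and the order of domains along the chromosomes are given below as descriptions. The length rule used no value of the other maps. Whether they were looked at in the manual refinement is not given in the sources used here.

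Lampbrush chromosomes are giant meiotic bivalents of growing diplotene oocytes. Their axis is a row of compact chromatin granules, the chromomeres, from which lateral loops with very active transcription extend, and in birds, amphibians and other animals they are visible in the light microscope. Later in oocyte growth transcription declines, the loops retract and the chromosomes shorten. In a Hi-C map, which counts how often DNA segments lie close to each other, a contact domain is a stretch whose parts contact each other more than they contact the neighbouring stretches, and a boundary is the place where this preference breaks.

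All nuclei came from wild-type (WT) chicken oocytes, and each was isolated by hand and sequenced as a single nucleus. Oocytes 1 to 2 mm in diameter gave the lampbrush stage (LBC), and oocytes 4 to 7 mm in diameter gave the post-lampbrush stage (post-LBC). The authors split each stage into type 1 and type 2 after quality control and pooled the nuclei of each class: LBC type 2 from 6 nuclei, post-LBC type 1 from 4, post-LBC type 2 from 1, and LBC type 1, the map of the LUDs, from 14. A list holds domain coordinates of 1 pooled map and no value per nucleus, so nuclei could not be compared with each other, and every interval and test below covers counting error only. Post-LBC type 2 is 1 nucleus, so that its values cannot be told apart from those of that nucleus. The authors call the origin of the types unclear and report that boundaries of LBC type 2 cluster much like those of fibroblasts. They hold an earlier, pre-lampbrush stage more plausible for LBC type 2 than contamination by a somatic cell. For post-LBC type 2 they name a later stage as likely, and their main domain analyses used only type 1. By the study's count of contacts in each nucleus, the nuclei of either post-LBC map together hold fewer contacts than those of either LBC map, and what part depth has in the differences between maps was not tested.

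The automatic lists of these maps were set against the LUDs. They hold 1582 domains in LBC type 2, 1132 in post-LBC type 1, 1342 in post-LBC type 2 and 1546 in LBC type 1. Their median lengths were 608, 864, 688 and 592 kb in the same order, whereas the median LUD was 1756 kb long. The longest automatic domain of LBC type 2 measured 1440 kb, that of post-LBC type 1 1888 kb, that of post-LBC type 2 1920 kb and that of LBC type 1 1936 kb. A LUD that exceeds such a length by more than the 80 kb allowed below at each end could not be a single automatic domain of that list. LUDs no longer than the longest domain of a list are counted separately below. All LUDs lay on the 27 chromosomes that the 5 lists share, together with 629 of the SSDs.

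The LUDs ranged from 1348 to 9126 kb, with quartiles of 1504 and 2269 kb. Just inside the N50 lay 1 LUD of 1348 kb, on chromosome 6 from 24540001 to 25888000, and 4 of 1360 kb. Just outside it lay 10 domains of exactly 1344 kb and 1 of 1336 kb. Chromosomes 1 and 2 held 46 and 48 LUDs, which covered 62.6% and 75.5% of their domain length. On chromosomes 3, 4 and 5 there were 27, 28 and 15. The Z chromosome had 30 LUDs among 46 domains, and they covered 80.9% of its domain length, the highest share among the chromosomes of the manual list. The intermediate chromosomes 6 to 10 held 20 LUDs and the microchromosomes, numbered from 11, held 16. Chromosomes 15, 19, 20, 22, 23, 26, 27, 28, 33 and W had none.

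**Figure D1:**
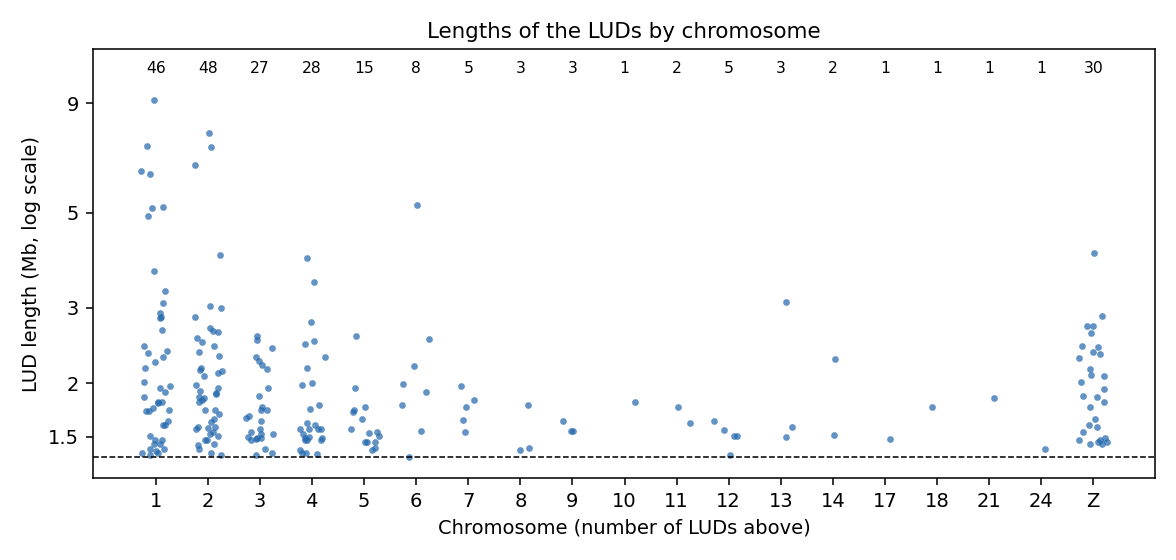
Length in Mb (log scale) of each of the 230 LUDs, by chromosome, with the number of LUDs above each column; the dashed line is the N50 of 1344 kb. Chromosomes 1, 2 and 6 hold the 10 LUDs over 5 Mb, whereas Z has many LUDs of moderate length and its longest measures 4026 kb.

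The 10 longest LUDs were all longer than 5 Mb. The first, of 9126 kb, occupied chromosome 1 from 19424001 to 28550000. Next came chromosome 2 from 120600001 to 128272000 (7672 kb), chromosome 1 from 148240001 to 155400000 (7160 kb) and chromosome 2 from 68175001 to 75296000 (7121 kb). The fifth, on chromosome 2 from 129925001 to 136375000, measured 6450 kb. Chromosome 1 held another 4 of them, from 95050001 to 101312000 (6262 kb), from 158570001 to 164704000 (6134 kb), from 40925001 to 46080000 (5155 kb) and from 127375001 to 132512000 (5137 kb). The last of the 10 lay outside the macrochromosomes, on chromosome 6 from 3630001 to 8840000, and measured 5210 kb. Chromosomes with 1 or 2 LUDs had none longer than 2272 kb, the length of the one on chromosome 14 from 10080001 to 12352000. These small sets comprised 2 LUDs each on chromosomes 11 and 14 and 1 each on chromosomes 10, 17, 18, 21 and 24. These single LUDs were 1808 kb (chromosome 10 from 14592001 to 16400000), 1480 kb (chromosome 17 from 1880001 to 3360000), 1760 kb (chromosome 18 from 1040001 to 2800000), 1850 kb (chromosome 21 from 800001 to 2650000) and 1408 kb long (chromosome 24 from 4272001 to 5680000).

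First it was asked how the other maps divide the LUDs. A LUD was called divided where an automatic boundary lay inside it, at least 80 kb from both of its ends. In LBC type 2 all 230 LUDs were divided (100%, 95% Wilson interval 98.4% to 100%), against 77.3% of all manual domains on the shared chromosomes. Post-LBC type 1 divided 195 of 230 (84.8%, 79.6% to 88.9%), against 36.7% of all manual domains. Post-LBC type 2 divided 220 of 230 (95.7%, 92.2% to 97.6%), against 59.5%. Among the SSDs alone, 69.0% were divided in LBC type 2, 19.1% in post-LBC type 1 and 46.3% in post-LBC type 2. A longer domain has more room for a boundary, so that boundaries per Mb are given further below. The automatic list of LBC type 1, made from the same map as the LUDs, divided 227 of the 230.

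The limit set by the lists bears on these counts. Only 29 LUDs were no longer than the longest domain of LBC type 2, and all 29 were divided there. For post-LBC type 1, 140 LUDs were within the longest domain of the list, and 105 of them (75%) were divided. For post-LBC type 2 this was 134 of 144 LUDs (93.1%). No LUD longer than 2000 kb was undivided in any of the other 3 lists. Automatic domains covered on average 99.5% of the length of a LUD in LBC type 2, 99.6% in post-LBC type 1 and 97.6% in post-LBC type 2.

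A LUD held a median of 2 boundaries in LBC type 2, 1 in post-LBC type 1 and 2 in post-LBC type 2. Of the LUDs in LBC type 2, 99 had 2 boundaries and 72 had 3, and the most in a LUD was 13. For post-LBC type 1, 35 LUDs had none, 108 had 1 and 62 had 2, with a maximum of 8. With post-LBC type 2, 10 had none, 56 had 1, 76 had 2 and 54 had 3, with a maximum of 14. Post-LBC type 1 thus had the fewest boundaries inside LUDs, 342, against 588 in post-LBC type 2 and 647 in LBC type 2, and its list is also the shortest. Where a map placed 1 boundary in a LUD, the shorter of the resulting parts was a median of 38.3% of the LUD in LBC type 2 (23 LUDs), 36.0% in post-LBC type 1 (108 LUDs) and 37.0% in post-LBC type 2 (56 LUDs).

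**Figure D2:**
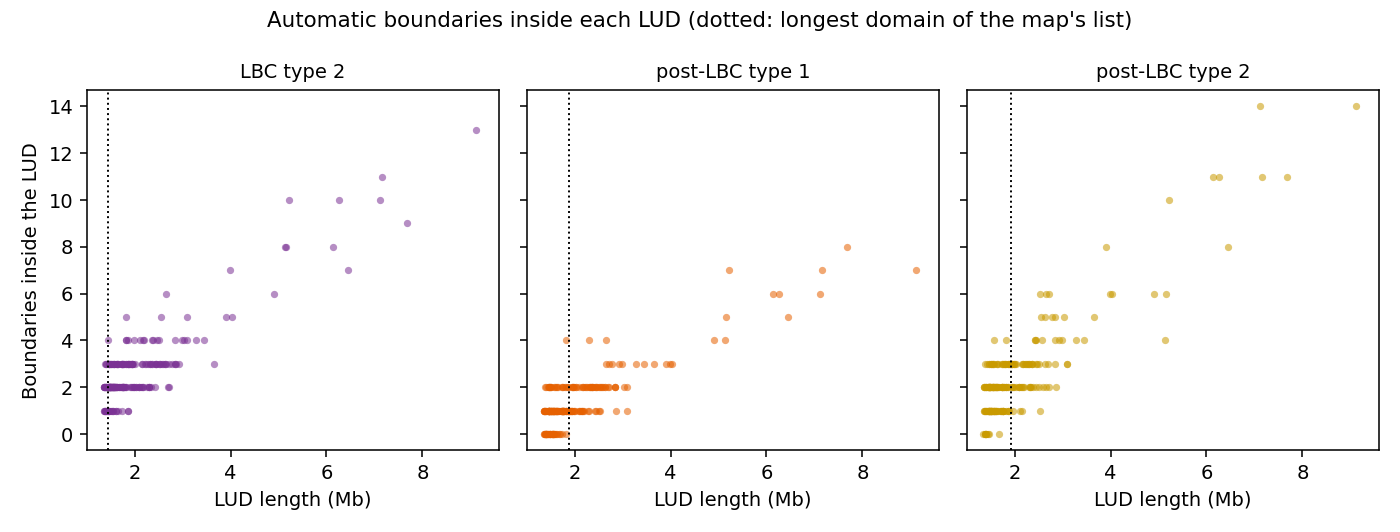
Number of automatic boundaries inside each of the 230 LUDs (vertical axis) against its length in Mb (horizontal axis) in LBC type 2, post-LBC type 1 and post-LBC type 2; the dotted line marks the longest domain of each list. Counts grow with length in each map, and undivided LUDs, absent in LBC type 2, number 35 in post-LBC type 1 and 10 in post-LBC type 2, each of them left of the dotted line.

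The longest LUDs show this division most plainly. The 9126 kb LUD of chromosome 1 held 13 boundaries in LBC type 2, 7 in post-LBC type 1 and 14 in post-LBC type 2, the highest counts of any LUD in LBC type 2 and, together with the 7121 kb LUD of chromosome 2, in post-LBC type 2. The 7 of post-LBC type 1 lay at 1232, 2336, 3584, 4224, 5120, 6736 and 7664 kb from its start. Of these, the one at 2336 kb (position 21760000) had a counterpart at 21744000 in both LBC type 2 and post-LBC type 2 and at 21776000 in the automatic list of LBC type 1. It was the only boundary of post-LBC type 1 in this LUD with a counterpart in both of the other maps within 80 kb. The 7672 kb LUD of chromosome 2 had 9, 8 and 11 boundaries in LBC type 2, post-LBC type 1 and post-LBC type 2, and the 8 were the most in post-LBC type 1. There 3 boundaries of post-LBC type 1, at 123184000, 124224000 and 126416000, recurred in both other maps. The LUD of chromosome 1 from 148240001 to 155400000 held 11, 7 and 11 boundaries in the same order, and 2 places, at 150384000 and 154096000 in post-LBC type 1, were shared. In the 6450 kb LUD of chromosome 2 the shared places lay at 135248000 and 135840000, and in the 6262 kb LUD of chromosome 1 there was 1, at 96368000. The plot of the 10 longest LUDs sets the boundaries of the 4 lists one above the other.

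**Figure D3:**
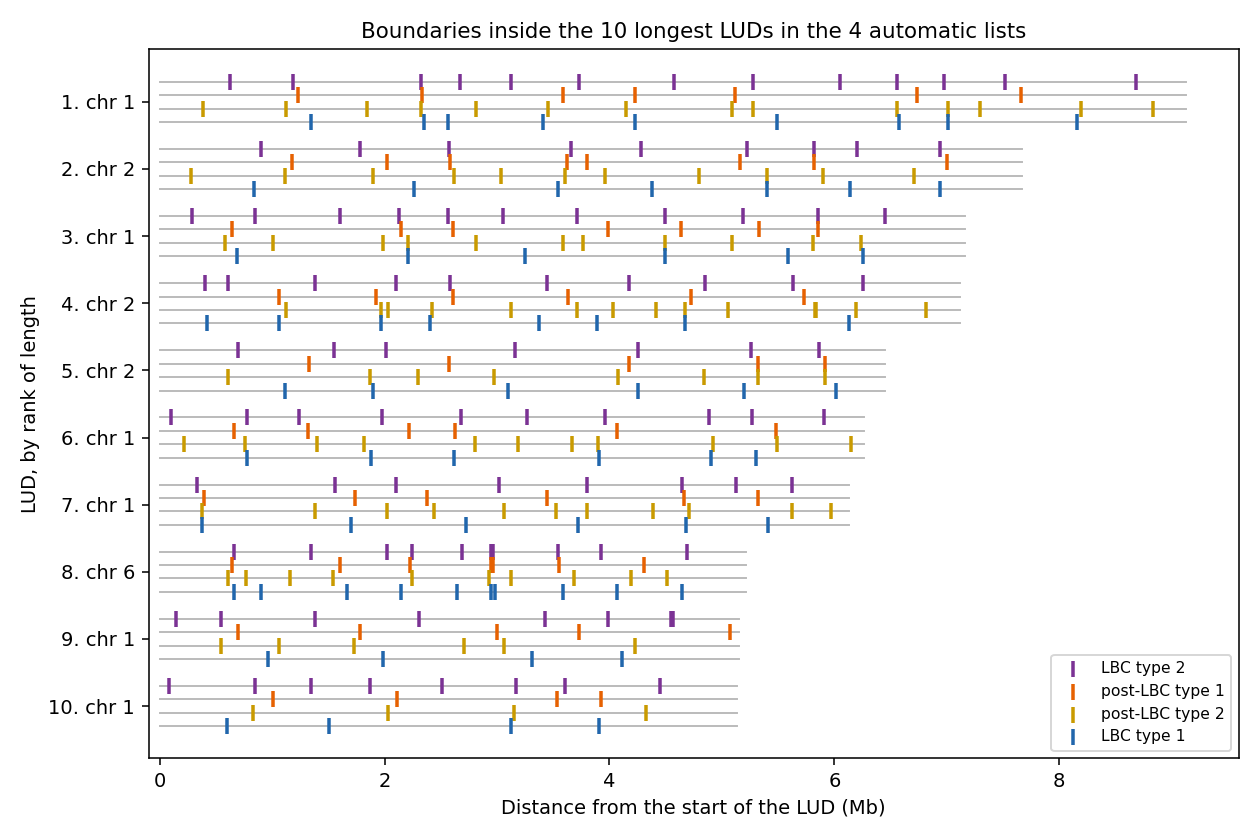
Positions of automatic boundaries inside the 10 longest LUDs, as the distance in Mb from the LUD start; each LUD has a line for LBC type 2, post-LBC type 1, post-LBC type 2 and LBC type 1, from top to bottom, and each tick is a boundary at least 80 kb from the ends. In the longest LUD the 13, 7, 14 and 9 ticks of these lists line up at 1 place, 2336 kb from the start in post-LBC type 1, and elsewhere lie more than 80 kb apart in at least 1 list.

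Places where all 3 other maps divided a LUD were a minority. Of the 342 boundaries that post-LBC type 1 placed inside LUDs, 73 (21.3%, 95% Wilson interval 17.3% to 26.0%) had a counterpart within 80 kb in both LBC type 2 and post-LBC type 2. A further 157 (45.9%) had one in 1 of these maps and 112 (32.7%) in neither. The 73 boundaries lay in 59 LUDs, and 49 of them (67.1%) were also in the automatic list of LBC type 1. The remaining 171 LUDs had no such boundary of post-LBC type 1. Some of the 73 boundaries lie close together, such as 6576000 and 6592000 on chromosome 6, both matched by 6560000 in post-LBC type 2. Separate places are therefore fewer than 73, and the interval counts each boundary singly. Counted from post-LBC type 2, 78 of 588 boundaries had a counterpart in both other maps, and from LBC type 2 it was 73 of 647. The same counts were not made for SSDs. For the boundaries of LBC type 2 inside LUDs, 57.8% had no counterpart in either post-LBC map (374 of 647), and for those of post-LBC type 2, 51.2% had none in either of LBC type 2 and post-LBC type 1 (301 of 588). These shares depend on how dense each list is, and what unrelated lists of the same density would give was not tested.

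Whole LUDs were also found as single automatic domains. Each of the 35 undivided LUDs of post-LBC type 1 had a boundary there within 80 kb of both of its ends, so that the LUD was kept there as 1 domain. They measured 1348 to 1808 kb. The 5 longest were on chromosome 10 from 14592001 to 16400000 (1808 kb), chromosome 4 from 39696001 to 41440000 (1744 kb), chromosome 2 from 27100001 to 28800000 (1700 kb), chromosome 3 from 20656001 to 22336000 (1680 kb) and chromosome 2 from 38176001 to 39800000 (1624 kb), named here after their values were seen. Among the 10 undivided LUDs of post-LBC type 2, 9 had both ends in place. There was none in LBC type 2, and in the automatic list of LBC type 1 there were 3. Of the 629 SSDs, 364 were undivided with both ends in place in post-LBC type 1 and 144 in post-LBC type 2. The counts of SSDs were 77 in LBC type 2 and 267 in the automatic list of LBC type 1. Being kept as 1 domain was rarer among LUDs than among SSDs in each list, but the length rule bears on this contrast. No SSD exceeds 1344 kb, so that none was too long to be a single automatic domain. Of the 230 LUDs, 140 in LBC type 2, 73 in post-LBC type 1 and 71 in post-LBC type 2 were too long, with 80 kb allowed at each end. In the automatic list of LBC type 1 it was 70. There were 8 LUDs, 3.48% of the 230, that were undivided in both post-LBC maps. They included the shortest LUD, on chromosome 6 from 24540001 to 25888000, which had a single boundary in LBC type 2 and both ends in all 3 maps. No LUD was undivided in all 3 other maps, since LBC type 2 divided every one.

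The long domains of the other lists can be asked the reverse question. Post-LBC type 1 had 93 automatic domains longer than 1344 kb on the shared chromosomes, and the middle of 83 of them lay in a LUD (89.2%, 95% Wilson interval 81.3% to 94.1%). LUDs take up 49.4% of the manual domain length on these chromosomes. A domain longer than 1344 kb cannot lie wholly within an SSD, so that this share of length is not a full background. What unrelated lists would give was not tested. For post-LBC type 2, 28 of 50 such domains had their middle in a LUD (56.0%, 42.3% to 68.8%), an interval that includes the share of length. LBC type 2 had 4 such domains, 3 of them in LUDs, and the automatic list of LBC type 1 had 24, all 24 in LUDs. Of the 83 in post-LBC type 1, 33 matched a LUD at both ends within 80 kb. Automatic domains with their middle in a LUD had a median length of 976 kb in post-LBC type 1, against 800 kb for those in SSDs. For LBC type 2 the medians were 624 kb in LUDs and 592 kb in SSDs, and for post-LBC type 2 they were 688 kb in LUDs and 704 kb in SSDs.

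Then it was asked whether the ends of the LUDs recur in the other maps. An end recurs where an automatic boundary lies within 80 kb of it. In post-LBC type 1, 346 of 460 LUD ends recurred (75.2%, 95% Wilson interval 71.1% to 78.9%), against 78.1% of the ends of all manual domains. Post-LBC type 2 had 277 of them in place (60.2%, 55.7% to 64.6%), against 57.2% of all ends, and in LBC type 2 it was 231 (50.2%, 45.7% to 54.8%), against 48.4%. Each of these shares lies near that of the whole list. The automatic list of LBC type 1 itself had a boundary at 84.6% of the LUD ends. LBC type 2, from oocytes of the same size as LBC type 1, had the lowest share although its list is the longest, and its interval does not overlap those of the post-LBC maps. A place where LUDs meet gives an end to each, so that ends are not independent and these intervals may be too narrow. With each border touching a LUD counted once, the intervals were 38.1% to 48.9% in LBC type 2 and 52.0% to 62.8% in post-LBC type 2. Type 2 nuclei were set apart by the authors by their contacts between chromosomes, and the authors propose that LBC type 2 is of an earlier stage. What part either has in this difference was not tested.

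Borders between neighbouring domains gave the formal comparison, with each border counted once and placed midway between facing ends within 80 kb of each other. Of the borders that touched a LUD, 246 of 320 (76.9%) recurred in post-LBC type 1, against 355 of 451 borders between SSDs (78.7%). The odds ratio was 0.90 (95% interval 0.629 to 1.29), and the two-sided Fisher's exact test with Benjamini-Hochberg adjustment over the 3 maps gave an adjusted p of 0.769. For post-LBC type 2, 184 of 320 (57.5%) against 236 of 451 (52.3%) gave an odds ratio of 1.23 (0.914 to 1.66), with an adjusted p of 0.491 in the same exact test. For LBC type 2, 139 of 320 (43.4%) against 201 of 451 (44.6%) gave 0.955 (0.708 to 1.29), with an adjusted p of 0.769 in the same exact test. No difference was detectable in any of the 3 maps at these counts, and the intervals leave room for modest differences in either direction. The comparison depends on the tolerance, the length threshold and the Z chromosome. In post-LBC type 1 at 20 kb the odds ratio was 0.679 (adjusted p = 0.033, exact test), and without Z it was 1.26 (adjusted p = 0.385). With LUDs taken as domains over 1000 kb, borders touching a LUD recurred more than those between SSDs in both post-LBC maps, with odds ratios of 1.82 in post-LBC type 1 and 1.68 in post-LBC type 2 (adjusted p = 0.00173 in each, exact test). At a tolerance of 160 kb the odds ratio in post-LBC type 2 was 1.54 (adjusted p = 0.0225, exact test).

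Both ends of the same LUD recurred in 134 LUDs in post-LBC type 1 (58.3%), 85 in post-LBC type 2 (37.0%) and 57 in LBC type 2 (24.8%). The corresponding shares of SSDs were 63.9%, 32.1% and 23.2%. At the other extreme, 18 LUDs in post-LBC type 1, 38 in post-LBC type 2 and 56 in LBC type 2 had neither end in place. Counted by end, 138 of the 460 LUD ends (30%) were found in all 3 other maps, 173 (37.6%) in 2, 94 (20.4%) in 1 and 55 (12.0%) in none. The SSD ends were spread over these classes in similar shares, 29.0%, 35.1%, 25.8% and 10.1%. There were 24 LUDs with both ends in all 3 other maps, 10.4% of the LUDs, against 8.90% of the SSDs. The longest of them lay on chromosome 2 from 49125001 to 52150000 (3025 kb) and held 4 boundaries in LBC type 2, 2 in post-LBC type 1 and 5 in post-LBC type 2, so that its outline recurred while its interior was divided.

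The ends of LUDs on the Z chromosome recurred less than those on autosomes in both post-LBC maps. Z is the larger sex chromosome of birds, and hens carry a Z and a W. In post-LBC type 1, 22 of 60 ends of Z LUDs recurred (36.7%, 95% Wilson interval 25.6% to 49.3%), against 324 of 400 ends of autosomal LUDs (81.0%, 76.9% to 84.5%). The counts in post-LBC type 2 were 24 of 60 (40%, 28.6% to 52.6%) on Z and 253 of 400 (63.2%, 58.4% to 67.8%) on autosomes. LBC type 2 had 30 of 60 (50%) on Z and 201 of 400 (50.2%) on autosomes. Counted by border, 8 of 31 borders touching a Z LUD and 238 of 289 touching an autosomal LUD recurred in post-LBC type 1, an odds ratio of 0.0745 (two-sided Fisher's exact test, adjusted p = 6.38e-10 over the 3 maps). For post-LBC type 2, 11 of 31 on Z and 173 of 289 on autosomes gave 0.369 (adjusted p = 0.0184, exact test), and in LBC type 2, 12 of 31 on Z and 127 of 289 on autosomes gave 0.806 (adjusted p = 0.704, exact test). This comparison was made after the values by chromosome were seen. Of the ends of the 16 SSDs on Z, 19 of 32 recurred in post-LBC type 1 (59.4%, 42.3% to 74.5%), against 79.2% of the ends of all SSDs. Of these SSDs, 15 of 16 have a LUD as neighbour, so that many of their ends may lie at borders already counted for LUDs. Borders between SSDs alone were not counted on Z. Whether the lower share on Z in this map is limited to LUDs was thus not tested. In post-LBC type 2 the shares of SSD ends were 59.4% on Z and 56.0% in all, and in LBC type 2 53.1% and 47.8%. The median automatic domain on Z was 1064 kb in post-LBC type 1, 864 kb in post-LBC type 2 and 680 kb in LBC type 2. The whole lists had 864, 688 and 608 kb. In the automatic list of LBC type 1 the counts by border were 23 of 31 on Z (74.2%) and 248 of 289 on autosomes (85.8%), an odds ratio of 0.475, and those by end were 49 of 60 (81.7%) on Z and 340 of 400 (85.0%) on autosomes. The contact depth on Z was not analysed here, and its part in these values was not tested.

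**Figure D4:**
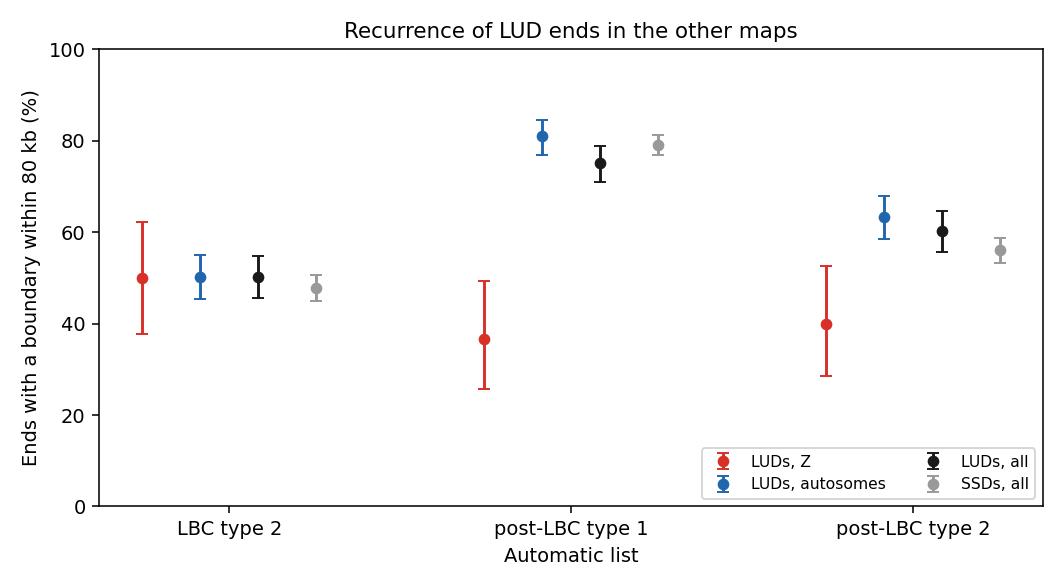
Share of domain ends (percent) with an automatic boundary within 80 kb in LBC type 2, post-LBC type 1 and post-LBC type 2, with 95% Wilson intervals, for LUDs on Z, LUDs on autosomes, all LUDs and all SSDs. The points of all LUDs and all SSDs lie close together in each map, whereas Z LUDs stand at 36.7% in post-LBC type 1, below the 81.0% of autosomal LUDs.

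In all, 7 LUDs had neither end in any of the 3 other maps, and 4 of these lay on Z: from 18304001 to 20112000, from 37232001 to 39104000, and the neighbours from 48752001 to 51472000 and from 51472001 to 53232000. The other 3 were on chromosome 1 from 173184001 to 175536000 and from 188192001 to 191475000, and on chromosome 2 from 109120001 to 111072000. They are named after their values were seen. At the facing ends of the neighbouring Z pair, at 51472000, the nearest boundary of LBC type 2 was 240 kb away, that of post-LBC type 1 624 kb and that of post-LBC type 2 224 kb. Post-LBC type 1 therefore had no boundary where these LUDs meet. In the automatic list of LBC type 1 the nearest boundary to this place was 128 kb away, also beyond the tolerance. Some of the other ends of the LUDs named here had a boundary of that list within 80 kb, and some had none.

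On the autosomes the recurrence in post-LBC type 1 was highest on the intermediate chromosomes, with 38 of 40 LUD ends (95%). It was 28 of 32 on the microchromosomes (87.5%) and 258 of 328 on the macrochromosomes 1 to 5 (78.7%). These classes had 67.5%, 62.5% and 62.8% in post-LBC type 2. By length, LUD ends recurred in post-LBC type 1 in 78.3% for LUDs of up to 1600 kb, 76.2% for those of 1600 to 2000 kb, 67.3% for 2000 to 3000 kb and 80% for longer ones, with no steady trend.

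The interiors of LUDs and SSDs were compared by boundaries per Mb of interior, which leaves out the outer 80 kb on each side. This rate still depends on the length that chose the LUDs. No domain of post-LBC type 1 exceeds 1888 kb, so that 73 LUDs had to hold a boundary in that list, and no automatic domain is shorter than 208 kb, which leaves less room for a boundary in a short SSD. In post-LBC type 1, LUDs held 342 boundaries in 448.1 Mb, or 0.763 per Mb, and SSDs held 127 in 395.7 Mb, or 0.321 per Mb. The ratio was 2.38 (95% exact interval 1.93 to 2.94, adjusted p = 5.39e-18, two-sided exact binomial test of the rates with Benjamini-Hochberg adjustment over the 3 maps). The rates in post-LBC type 2 were 1.31 per Mb in LUDs and 0.970 per Mb in SSDs, a ratio of 1.35 (1.19 to 1.54, adjusted p = 5.39e-06, same exact test). LBC type 2 had 1.44 per Mb in LUDs and 1.41 per Mb in SSDs, a ratio of 1.03 (0.916 to 1.15, adjusted p = 0.644, same exact test). The automatic list of LBC type 1, which was not tested here, held 506 boundaries in the same LUD interiors and 348 in the SSD interiors. Its boundaries were thus also denser in LUDs, but it is of the same map whose refined lengths chose the LUDs. It therefore cannot tell whether the excess is particular to the post-LBC maps. Counted this way, boundaries were denser inside LUDs than inside SSDs in both post-LBC maps, and no difference was detectable in LBC type 2. With the automatic list of LBC type 1 and its own N50 in place of the manual list, both calls were lost, with ratios of 1.29 in post-LBC type 1 and 1.16 in post-LBC type 2 (adjusted p = 0.056 in each, exact test). Both ends of an automatic domain lie at least 208 kb apart, whereas both edges of a gap can lie close together. The boundaries of a list are thus not independent, so that these p-values describe counts of the lists.

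The rate in post-LBC type 1 varied with length among SSDs and among LUDs, with the widest step between neighbouring length classes from 750 kb upwards at the N50. It was 0.275 per Mb in domains of 750 to 1000 kb, 0.386 (95% Poisson interval 0.302 to 0.486) in domains of 1000 to 1344 kb, 0.606 (0.474 to 0.763) in LUDs of up to 1600 kb, 0.735 from 1600 to 2000 kb, 0.836 from 2000 to 3000 kb and 0.892 above. The same length classes had 0.955, 1.10, 1.16, 1.28, 1.32 and 1.52 per Mb in post-LBC type 2. They had 0.817, 1.12, 1.18, 1.24, 1.07 and 1.02 per Mb in the automatic list of LBC type 1. With LUDs of up to 2000 kb set against SSDs of at least 1000 kb, an alternative added after the values were seen, the ratio was 1.73 in post-LBC type 1 (adjusted p = 2.63e-04, exact test) and 1.11 in post-LBC type 2 (adjusted p = 0.378). On chromosomes 1 to 5 and Z alone the ratio in post-LBC type 2 was 1.18 (adjusted p = 0.0523, exact test).

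**Figure D5:**
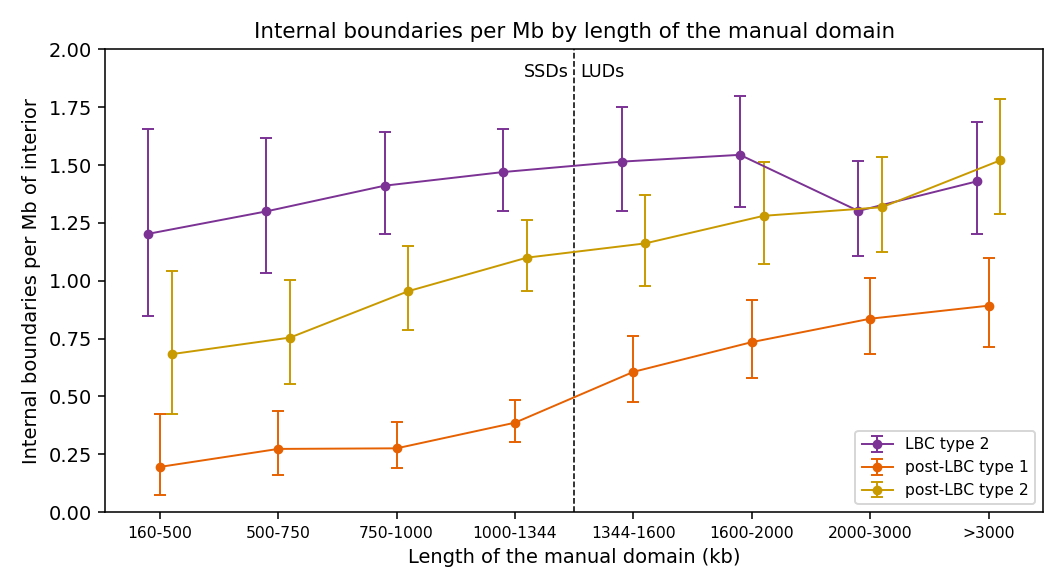
Internal boundaries per Mb of interior (vertical axis) by length of the manual domain in kb (horizontal axis), with exact 95% Poisson intervals, for LBC type 2, post-LBC type 1 and post-LBC type 2; the dashed line separates SSDs from LUDs at 1344 kb. The points of post-LBC type 1 climb with length to 0.892 per Mb in LUDs over 3000 kb, whereas LBC type 2 stays between 1.20 and 1.54 per Mb.

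The automatic list of LBC type 1 was also compared with the LUDs, which were refined by hand for the same map. Whether the refinement started from this very list is not given in the sources used here. The automatic list placed 506 boundaries inside LUDs, which the manual list does not carry, and 338 within 80 kb of LUD ends. In post-LBC type 1, 167 of the 506 inside LUDs recurred (33.0%, 95% Wilson interval 29.0% to 37.2%), and 268 of the 338 at LUD ends did (79.3%, 74.7% to 83.3%). The shares were 36.2% inside and 66.0% at the ends in post-LBC type 2, and 46.0% inside and 55.6% at the ends in LBC type 2. The share inside LUDs lay below the share at LUD ends in all 3 maps. The intervals do not overlap in the post-LBC maps, and they meet in LBC type 2 (41.8% to 50.4% inside and 50.3% to 60.8% at the ends). The manual list belongs to the LBC type 1 map. Whether the other maps were looked at during the refinement is not given in the sources used here. The split into boundaries at LUD ends and inside LUDs may thus not be independent of them. The same automatic list also placed 348 boundaries inside SSDs. Their recurrence was not counted, so that whether this contrast is particular to LUDs was not tested.

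LUDs often lay side by side. A LUD was the next domain on at least 1 side of 142 of the 230 LUDs (61.7%) and of 218 of the 629 SSDs (34.7%), against 41.9% of all manual domains. On Z, where 65.2% of the domains are LUDs, this held for 25 of 30 LUDs and 15 of 16 SSDs. On the macrochromosomes it held for 107 of 164 LUDs (65.2%) and 148 of 278 SSDs (53.2%), on the intermediate chromosomes for 4 of 20 LUDs (20.0%) and 32 of 128 SSDs (25.0%), and on the microchromosomes for 6 of 16 LUDs (37.5%) and 23 of 207 SSDs (11.1%). The share was thus higher for LUDs than for SSDs on the macrochromosomes and the microchromosomes, and lower on Z and the intermediate chromosomes. LUDs were 37.1% of the domains on the macrochromosomes, 13.5% on the intermediate chromosomes and 7.17% on the microchromosomes. A chromosome rich in LUDs gives more LUD neighbours to both classes, so that the pooled shares also reflect how LUDs are spread over chromosomes. The lengths that chose the LUDs also decide these counts, and no test was made.

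Taking only LUDs that meet within 80 kb, 127 LUDs (55.2%) formed 49 runs, and 103 stood alone. There were 27 runs of 2, 17 of 3, 3 of 4 and 2 of 5 LUDs. How many runs the share of LUDs on each chromosome would give by itself was not tested. The median length was 1760 kb in runs and 1728 kb for LUDs that stood alone. The runs of 5 lay on chromosome 2 from 22128001 to 32544000, a span of 10.4 Mb, and on Z from 18304001 to 26592000, a span of 8.29 Mb. Their members measured 2448, 2496, 1700, 2176 and 1520 kb on chromosome 2 and 1808, 1856, 1584, 1440 and 1600 kb on Z, in order along the chromosome. Runs of 4 lay on chromosome 1 from 14368001 to 28550000, ending with the 9126 kb LUD, on chromosome 2 from 103150001 to 111072000 and on Z from 35776001 to 43040000. The run with the greatest span was one of 3 on chromosome 2 from 120600001 to 136375000, 15.8 Mb, which holds the 7672 and 6450 kb LUDs.

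These runs differed in whether the borders between their members recurred. In the run of 5 on chromosome 2, all 4 inner borders recurred in LBC type 2 and in post-LBC type 1 and 3 in post-LBC type 2. In the run of 5 on Z, 2 of 4 recurred in LBC type 2, none in post-LBC type 1 and 1 in post-LBC type 2. In the Z run of 4, 1 of 3 recurred in LBC type 2 and none in either post-LBC map. In the run of 4 on chromosome 2, none of 3 recurred in LBC type 2, 2 in post-LBC type 1 and 1 in post-LBC type 2. In the run on chromosome 1, 2 of 3 recurred in LBC type 2, 2 in post-LBC type 1 and 1 in post-LBC type 2. Over all chromosomes, 55 of the 78 borders between LUDs recurred in post-LBC type 1 (70.5%, 95% Wilson interval 59.6% to 79.5%), against 191 of 242 borders between a LUD and an SSD (78.9%, 73.4% to 83.6%). The shares in post-LBC type 2 were 52.6% between LUDs and 59.1% between a LUD and an SSD, and in LBC type 2 they were 47.4% and 42.1%. In each map the intervals of these shares overlap.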

How the data were processed

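Single-nucleus Hi-C of chicken oocytes was deposited as 5 lists of contact domains. Reads had been trimmed with cutadapt, aligned with juicer to ASM2420605v2 and stored with cooler, the 25 nuclei were pooled by group, and domains were called with lavaburst by the authors. The deposited values are domain starts and ends in bp, with no normalization, score or depth, and hence no signal behind a boundary can be given. The authors state a gamma rule for single oocytes, and how gamma was set for the pooled maps is not given in the sources used here. For the LBC type 1 map the authors also gave a list refined by hand. All automatic coordinates lie on a 16 kb grid, as do 76.1% of the LUD ends.

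LUDs, SSDs and the lists compared were chosen with earlier results of these data known. All starts and ends of automatic domains were taken as boundaries, a gap giving its 2 edges, with a tolerance and an inner margin of 80 kb. Starts are given 1-based, and a boundary as the last base before it. Shares have 95% Wilson intervals. Counts were compared with Fisher's exact test and rates with an exact binomial test, both two-sided, adjusted by Benjamini-Hochberg over 3 maps, in Python 3.11.15 with numpy 2.4.6 and scipy 1.17.1 (plots: matplotlib 3.10.9). The functions were tested on simulated data. Regions named are the 10 longest LUDs, those at the N50, members of the longest runs, LUDs with the most boundaries in a map, the 5 longest divided at 1 place in all 3 other maps, undivided ones, and LUDs of chromosomes with 1 or 2. Alternatives were other tolerances, margins, thresholds, gap treatment, chromosome sets and the automatic list of LBC type 1. Sequence and genes at the LUDs were not analysed here, since the annotation at hand is of another build.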

Additional observations from a re-analysis of the deposited data

Results flagged for a closer look

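The ratio of internal boundaries per Mb between LUDs and SSDs differed between maps when the difference itself was tested, a comparison chosen after the values were seen. It was 2.38 in post-LBC type 1 and 1.03 in LBC type 2, a ratio of ratios of 2.31 (two-sided Fisher's exact test on the 4 counts, adjusted p = 1.39e-12 over 3 pairs of maps). It was 1.35 in post-LBC type 2, which gave 1.32 against LBC type 2 (adjusted p = 0.00173, exact test), and post-LBC type 1 over post-LBC type 2 gave 1.76 (adjusted p = 5.01e-06, exact test). These rates depend on domain length. The longest automatic domain is 1888 kb in post-LBC type 1, 1920 kb in post-LBC type 2 and 1440 kb in LBC type 2. A recurring end also leaves less room inside a short SSD, since no automatic domain is shorter than 208 kb. SSD ends recurred in 79.2% in post-LBC type 1, 56.0% in post-LBC type 2 and 47.8% in LBC type 2. The automatic list of LBC type 1, with 506 boundaries inside LUDs and 348 inside SSDs, was not compared. Boundaries of a list are not independent, so that these p-values describe counts of the lists. The maps also differ in the number of pooled nuclei, 4, 1 and 6 in post-LBC type 1, post-LBC type 2 and LBC type 2, and in the length of their lists, and the part of either was not tested.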

How the results depend on the processing

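Of 126 recomputed values, 81 were called unchanged. For a tested ratio this means the same direction and the same side of the significance threshold. For a share it means a value within the interval of the main one. The share of LUDs divided was 100% in LBC type 2, and 81.9% with the automatic list of LBC type 1 and its own N50 as the base. Post-LBC type 1 had 84.8%, and 62.7% with LUDs over 1000 kb, 100% with LUDs over 2000 kb, 37.8% with the automatic list and 75% among LUDs no longer than the longest domain of that list (added after seeing the data). Post-LBC type 2 had 95.7%, and 86.5%, 100% and 65.7% with the first 3 of these settings.

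The share of ends recurring was 28.7%, 56.3% and 35.9% at a tolerance of 20 kb in LBC type 2, post-LBC type 1 and post-LBC type 2, and 67.4%, 81.3% and 75% at 160 kb. With LUDs over 2000 kb it was 55.3% in LBC type 2 and 70.7% in post-LBC type 1, with LUDs over 1000 kb 80.2% in post-LBC type 1, and without Z (added after seeing the data) 81.0% there. The automatic list gave 54.5% in post-LBC type 1 and 47.5% in post-LBC type 2.

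The odds ratio of borders touching a LUD, which passed the threshold in no map, changed side of 1 in several settings. In LBC type 2 it was 1.14 at 160 kb, 1.20 over 1000 kb, 1.12 over 2000 kb and 1.06 on chromosomes 1 to 5 and Z. For post-LBC type 1 it was 0.679 at 20 kb (adjusted p = 0.033), 1.07 at 160 kb, 1.82 over 1000 kb (adjusted p = 0.00173), 1.28 with the automatic list and 1.26 without Z, all by the exact test. For post-LBC type 2 it was 0.952 at 20 kb, 1.54 at 160 kb (adjusted p = 0.0225), 1.68 over 1000 kb (adjusted p = 0.00173) and 0.919 over 2000 kb.

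The rate ratio in LBC type 2, near 1, was 0.962 at 160 kb, 0.967 with an inner margin of 200 kb, 0.937 over 2000 kb, 0.989 with the automatic list and 0.949 on chromosomes 1 to 5 and Z. In post-LBC type 1 it fell below the threshold only with the automatic list (1.29, adjusted p = 0.056, exact test). In post-LBC type 2 it did so with the automatic list (1.16), on chromosomes 1 to 5 and Z (1.18) and for LUDs of up to 2000 kb against SSDs of at least 1000 kb (1.11, added after seeing the data). LUDs with a LUD as neighbour were 82.5% over 1000 kb, 32.0% over 2000 kb and 68.0% on chromosomes 1 to 5 and Z. The cause of these changes was not tested.

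No paired analysis was possible because the lists describe pooled maps and carry no value per nucleus, and for the same reason no nucleus was left out. The depth behind single boundaries is unknown.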
